A study of Mus musculus with 6 samples.

Results

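The genes described here encode the enzymes that break glucose down to carbon dioxide or to lactate. They comprised 16 genes of glycolysis, 2 subunits of lactate dehydrogenase, 5 enzymes or subunits that bring pyruvate into the mitochondrial cycle, 13 genes of the tricarboxylic acid (TCA) cycle and 4 genes of the pentose phosphate pathway. These 40 genes were named by symbol and matched to the Ensembl identifiers of the count tables, where all 40 were found among 54752 listed genes. RNA came from the right hippocampus of male C57BL/6 mice, genotype WT (C57BL/6 J in the study's methods). There were 3 mice in the Sham group and 3 in the BCAS group. The label of every mouse gives 14 weeks, which was taken as its age. In bilateral carotid artery stenosis (BCAS), a microcoil is wound around each common carotid artery and narrows it, which lowers blood flow to the brain for weeks. The right artery carried the tighter coil, sham mice were operated on but received no coil, and tissue was taken 3 weeks later. Each library came from a different mouse, and the mice are numbered 1 to 3 within a group as in the labels. The libraries held 29652456 to 35607098 counted reads, of which the 40 genes took 1.02% to 1.26%. All are bulk libraries of a mixed tissue, so fewer cells of one type and less RNA per cell cannot be told apart.

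Glycolysis splits glucose into pyruvate in the cytosol and yields a little ATP. Lactate dehydrogenase converts pyruvate to lactate and back, whereas the pyruvate dehydrogenase complex turns it into acetyl-CoA, which the TCA cycle oxidises in the mitochondrion to feed the respiratory chain. The pentose phosphate pathway branches off at glucose-6-phosphate and supplies NADPH, the reducing agent for fatty acid synthesis and for the defence against oxidants, as well as ribose for nucleotides. Neurons depend heavily on mitochondrial oxidation, astrocytes are known for glycolysis and lactate release, and activated microglia are known to take up more glucose. Several steps can be carried out by isoforms encoded by separate genes, which differ in tissue distribution and regulation.

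To learn how these pathways differed between the groups, each gene was compared with edgeR's quasi-likelihood test, and a gene passed at a Benjamini-Hochberg adjusted P value under 0.05 over all 18617 genes tested. After BCAS, 16 of the 40 genes were lower, 6 were higher and 18 did not pass. Over all tested genes 13.2% passed as lower and 18.0% as higher, or 31.3% in either direction, against 40% and 15% of the 40. The 6 higher genes were Hk2 and Hk3 (hexokinases), Idh2 (the mitochondrial NADP-dependent isocitrate dehydrogenase), Suclg2 (a subunit of succinyl-CoA ligase) and the pentose phosphate genes G6pdx and Pgd. The lower genes were spread over glycolysis, pyruvate entry and the TCA cycle. The median log2 fold change of the 40 genes was -0.23, whereas that of all tested genes was 0.018. Their mean was close to 0, at 0.00015, since the large values of Hk2 and Hk3 offset the many small negative ones.

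The decreases were modest and the increases ranged widely. Among the 16 lower genes the log2 fold change ran from -0.58 to -0.29, which is a change of -33.0% to -18.1%, and none reached the study's additional threshold of an absolute log2 fold change above 1. Hk2 and Hk3 were the 2 genes above it, and Suclg2 lay just under it. By comparison, 9.46% of all tested genes passed with that threshold added, 8.47% as higher and 0.999% as lower. Levels are given in CPM, the counts of a gene scaled by the TMM-corrected total of its library. The level of every BCAS mouse lay below that of every sham mouse in 22 of the 40 genes and above it in 7, while the groups overlapped in 11. Across all tested genes the groups were separated downwards in 22.7%, upwards in 25.3% and in 48.0% overall.

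**Figure D1:**
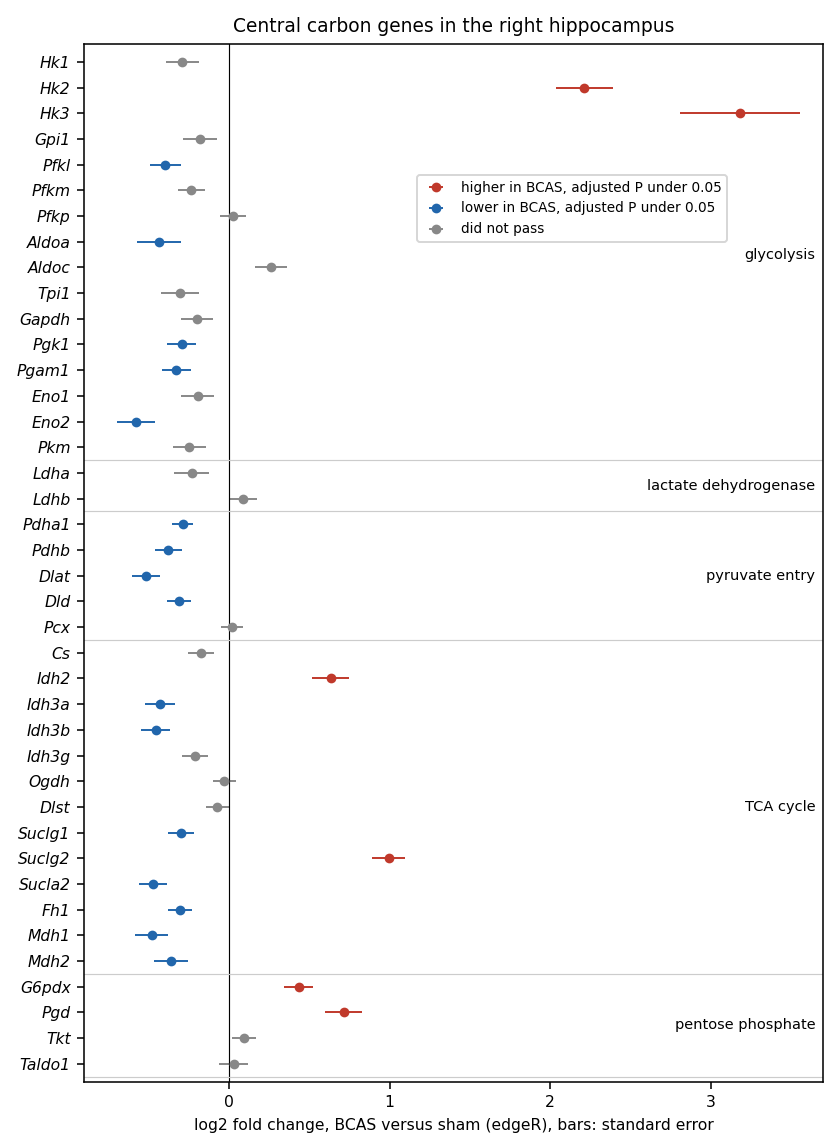
Log2 fold change of each of the 40 genes in BCAS against sham mice (horizontal axis), with the standard error of the edgeR fit as bars and the genes ordered by pathway. Red points are the 6 genes that passed as higher, blue points the 16 that passed as lower and grey points the 18 that did not pass, and Hk2 and Hk3 stand far to the right of the others.

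The pathways are counted one by one here, against 18.0% higher and 13.2% lower over all tested genes. In glycolysis 2 of 16 genes were higher and 5 were lower, with a median log2 fold change of -0.24 (the mean was 0.13 because of Hk2 and Hk3). The lower glycolytic genes numbered 2 when sham mouse 2 or BCAS mouse 1 was left out, 1 when sham mouse 3 was (Eno2), 3 when BCAS mouse 3 was and 9 when BCAS mouse 2 was, and DESeq2 also gave 9. Neither of the 2 lactate dehydrogenase genes passed. In pyruvate entry 4 of 5 genes were lower, with a median of -0.31, and 2 were when sham mouse 3 was left out. In the TCA cycle 7 of 13 genes were lower and 2 were higher, with a median of -0.30, and 4 were lower when either sham mouse 2 or sham mouse 3 was left out. In the pentose phosphate pathway 2 of 4 genes were higher and none passed as lower, with a median of 0.26. The difference between the pathways themselves was not tested.

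The mice of a group did not contribute equally. BCAS mouse 3 had the lowest level of the BCAS mice in 15 of the 16 lower genes and the highest in all 6 higher genes. BCAS mouse 2 was the highest BCAS mouse in 24 of the 28 genes with a negative log2 fold change, and sham mouse 3 was the highest sham mouse in all 16 lower genes. Without sham mouse 3, 7 of the 40 genes passed as lower (Eno2, Pdhb, Dlat, Idh3a, Idh3b, Sucla2 and Mdh1), and without sham mouse 2, 9 did. Without BCAS mouse 2, 23 passed as lower. The lower calls over all tested genes moved the same way, from 2463 with every mouse to 1260, 1412 and 3092 in these same analyses. The 6 higher genes passed whichever mouse was left out.

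**Figure D2:**
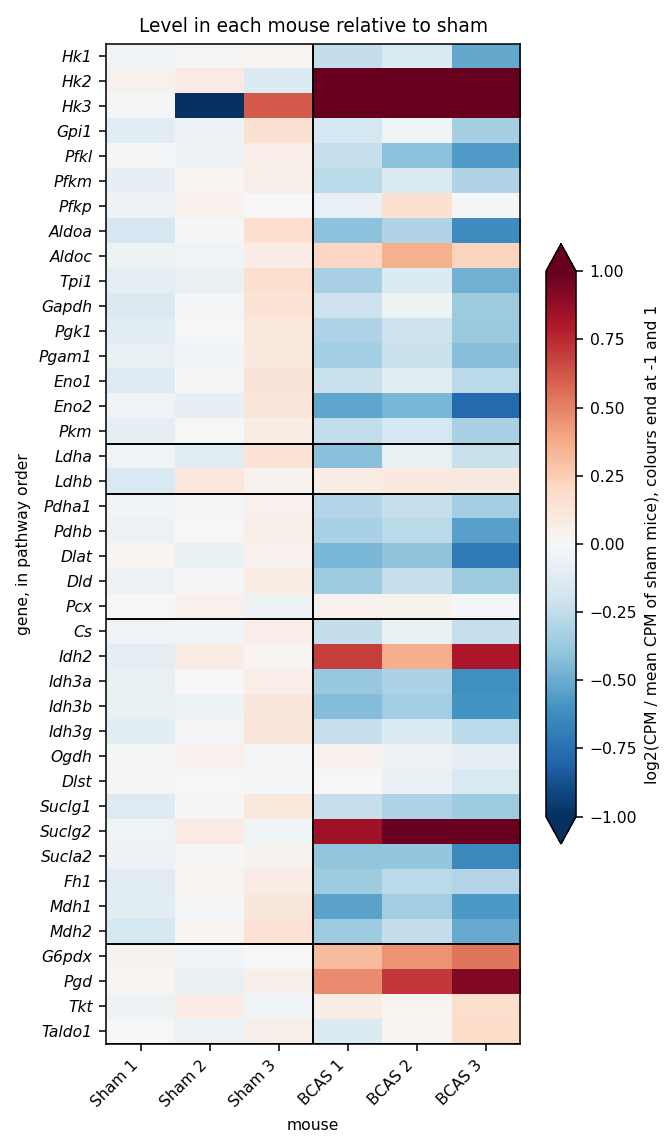
Level of each of the 40 genes (rows, in pathway order) in each of the 6 mice (columns), as log2 of its CPM over the mean CPM of the sham mice, with colours that end at -1 and 1. Blue prevails in the BCAS columns, most deeply in BCAS mouse 3, with red rows at Hk2, Hk3, Idh2, Suclg2, G6pdx and Pgd.

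Markers of the cell types of the hippocampus moved between the same groups. All 10 microglial markers passed as higher, with a median log2 fold change of 3.04, and their summed level was 376-394 CPM in sham mice and 2583-4263 CPM in BCAS mice, highest in BCAS mouse 3. All 6 astrocyte markers were higher, with sums of 3554-3920 CPM in sham and 8372-8997 CPM in BCAS mice, and 3 of 5 endothelial markers were higher, with sums of 232-255 and 305-339 CPM. Of the neuronal lists, 5 of 7 pan-neuronal markers were lower (sums of 5974-6458 against 3414-4906 CPM, lowest in BCAS mouse 3 and least reduced in BCAS mouse 2), as were 4 of 5 CA1 pyramidal markers (sums of 632-806 against 338-498 CPM), 5 of 6 interneuron markers (862-962 against 565-663 CPM) and 2 of 5 dentate granule markers (218-311 against 139-314 CPM). None of 6 oligodendrocyte markers passed (sums of 5092-6256 against 5840-8796 CPM). Neutrophil and monocyte markers were near 0, with sums of 0.898-2.07 against 3.91-7.89 CPM, no count of Ly6g in any mouse, and Ccr2 the one that passed of the 2 listed markers (of 6) with enough counts to be tested. Erythrocyte sums were 85.7-102 against 106-178 CPM with none of 5 markers passing, and choroid plexus sums ran from 40.8 to 5898 CPM with high and low mice in both groups. Eno2 and Aldoc, which are also used as neuronal and astrocyte markers, were left out of these lists. The mitochondrial share of counts was 6.90%, 6.92% and 6.99% in sham mice 1 to 3. It was 6.07%, 6.56% and 6.02% in BCAS mice 1 to 3, so every BCAS mouse was below every sham mouse. The part of the marker changes or of this share in the results on metabolic genes was not tested.

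**Figure D3:**
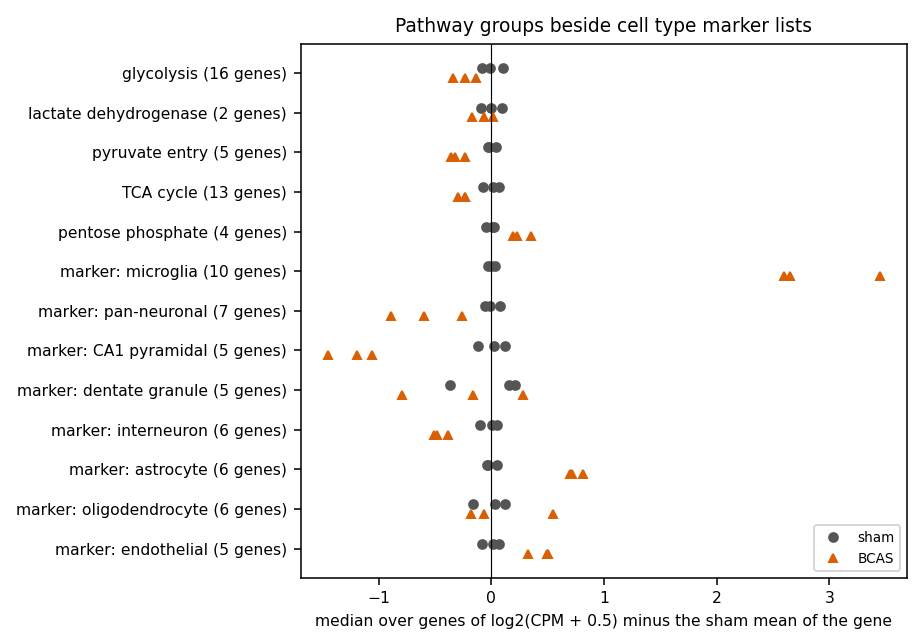
For each pathway group and cell type marker list, the median over its genes of log2(CPM + 0.5) minus the sham mean of the gene (horizontal axis), with 1 point per mouse, circles for sham and triangles for BCAS. BCAS mice lie left of the sham mice in glycolysis, pyruvate entry, the TCA cycle and the pan-neuronal, CA1 and interneuron lists, and right of them in the pentose phosphate, microglial, astrocyte and endothelial lists.

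The higher genes were ones of low level in sham mice. Divided by merged exon length, the 6 higher genes had sham means of 0.389 to 15.9 CPM per kilobase (CPM/kb). Those of the 16 lower genes were 21.8 to 519 CPM/kb and those of the 18 that did not pass 13.3 to 240 CPM/kb. The ranges of the higher and lower genes did not overlap. Over all tested genes, the median sham level was 2.09 CPM/kb in genes that passed as higher, 18.5 CPM/kb in those that passed as lower and 2.82 CPM/kb in the rest.

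Hexokinases trap glucose in the cell by phosphorylating it. Hk1 is the form typical of brain, Hk2 is typical of muscle, fat and tumours and is inducible, and Hk3 is typical of leukocytes. Hk1 (chr10:62268855-62379908, mm10, minus strand) was at 359.7, 370.4 and 375 CPM in sham mice 1 to 3 and at 311, 334 and 258 CPM in BCAS mice 1 to 3. All BCAS mice were below all sham mice, by a log2 fold change of -0.29 ± 0.10 (SE) that did not pass (adjusted P = 0.061), although it passed with DESeq2 (adjusted P = 0.020) and in 3 other of the 14 alternative analyses (other tests, scalings and filters, a replicate block, halved counts and each mouse left out), over which its adjusted P was 0.0164 to 0.157. Hk2 (chr6:82725025-82774454, minus strand) was at 6.35, 6.52 and 5.60 CPM in sham mice and at 24.4, 24.6 and 36.7 CPM in BCAS mice. Every BCAS mouse exceeded every sham mouse, BCAS mouse 3 most, and Hk2 rose 4.64-fold (log2 fold change 2.21 ± 0.18, adjusted P = 5.4e-05). Hk3 (chr13:55005985-55021385, minus strand) was at 1.42, 0.688 and 2.19 CPM in sham mice, from 48, 23 and 75 counts, and at 9.39, 12.9 and 16.8 CPM in BCAS mice. Its groups were likewise separate, with sham mouse 2 the lowest and BCAS mouse 3 the highest, and Hk3 rose 9.08-fold (log2 fold change 3.18 ± 0.37, adjusted P = 0.00038).

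Per kilobase, the 3 hexokinases could be compared with each other. Hk1 made up 96.8% ± 0.28 (SD, n = 3) of their summed level in sham mice and 80.7% ± 5.98 in BCAS mice. Hk2 made up 2.32% ± 0.22 in sham mice and 11.1% ± 3.40 in BCAS mice, and Hk3 0.869% ± 0.44 and 8.19% ± 2.70. The sum itself was 44.6 ± 0.93 CPM/kb in sham mice and 43.6 ± 2.93 CPM/kb in BCAS mice, which overlapped. Hk1 thus remained the most abundant hexokinase transcript in every mouse, and its lowest share was 73.8%, in BCAS mouse 3.

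The promoters of the hexokinases and of lactate dehydrogenase are printed so that isoforms of 1 enzyme can be set side by side, since Hk2 and Ldha are textbook targets of the hypoxia-inducible factors. Their core binding letters are ACGTG or GCGTG, and the capitals mark ACGTG, searched on both strands. There CACGT is the same motif read from the other strand and CACGTG, which holds both, counts as 1 place. Sequences are those of RefSeq on GRCm38.p6, the 250 bases before each listed start, written 5′ to 3′ on the strand of the gene with matches in capitals.
Hk1, first start, chr10:62379909-62380158, minus strand: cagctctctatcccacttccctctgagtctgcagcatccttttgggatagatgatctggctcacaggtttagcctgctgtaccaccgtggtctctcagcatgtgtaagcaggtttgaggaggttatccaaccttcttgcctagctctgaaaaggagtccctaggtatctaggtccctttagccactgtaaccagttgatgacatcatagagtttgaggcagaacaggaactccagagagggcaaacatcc
Hk1, the second start, chr10:62340422-62340671, minus strand: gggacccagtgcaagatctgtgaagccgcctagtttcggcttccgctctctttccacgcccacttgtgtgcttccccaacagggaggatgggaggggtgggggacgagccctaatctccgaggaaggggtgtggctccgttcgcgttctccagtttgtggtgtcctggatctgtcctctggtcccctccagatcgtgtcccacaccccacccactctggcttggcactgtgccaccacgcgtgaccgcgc
Hk2, chr6:82774455-82774704, minus strand: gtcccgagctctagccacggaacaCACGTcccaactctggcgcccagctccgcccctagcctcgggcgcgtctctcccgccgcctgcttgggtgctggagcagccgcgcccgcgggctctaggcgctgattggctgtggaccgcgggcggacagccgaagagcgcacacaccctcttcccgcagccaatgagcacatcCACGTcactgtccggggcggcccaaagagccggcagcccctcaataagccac
Hk3, chr13:55021386-55021635, minus strand: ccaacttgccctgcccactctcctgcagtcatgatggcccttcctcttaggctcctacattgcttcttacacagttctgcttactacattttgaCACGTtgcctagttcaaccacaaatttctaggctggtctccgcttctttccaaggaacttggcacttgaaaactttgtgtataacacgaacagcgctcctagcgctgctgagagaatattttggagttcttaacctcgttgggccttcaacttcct
Ldha, first start, chr7:46845554-46845803, plus strand: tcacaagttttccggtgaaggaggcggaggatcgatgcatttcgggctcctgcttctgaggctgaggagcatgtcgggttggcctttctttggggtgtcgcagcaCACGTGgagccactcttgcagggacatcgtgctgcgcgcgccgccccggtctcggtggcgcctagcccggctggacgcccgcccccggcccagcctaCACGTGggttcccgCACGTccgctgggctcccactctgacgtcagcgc
Ldhb, chr6:142507958-142508207, minus strand: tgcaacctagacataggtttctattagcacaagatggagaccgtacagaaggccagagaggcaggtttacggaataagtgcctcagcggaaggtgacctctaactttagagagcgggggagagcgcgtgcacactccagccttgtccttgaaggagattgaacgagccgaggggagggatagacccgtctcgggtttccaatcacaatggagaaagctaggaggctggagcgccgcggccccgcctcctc
The letters ACGTG occurred at 2 places before the start of Hk2, at 1 before that of Hk3, at 3 before the first start of Ldha and at none before the other listed start of Ldha (not printed), either start of Hk1 or that of Ldhb. The search for the other form, GCGTG on both strands, was added after seeing the data. It had 3 matches before the second start of Hk1 (a pair of them overlapping), 1 before the other start of Ldha and 1 before that of Ldhb, and none before the starts of Hk2 and Hk3, the first of Ldha or the first of Hk1. No contrast between the isoforms is therefore drawn from these letters.

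With the 50 bases after the start added, as in the full entries of 300 bases, Hk1 held ACGTG as well. An entry was matched for 39 of the 40 genes (all but Idh3a), and 17 of these, or 43.6%, held ACGTG in at least 1 promoter, against 21.8% of 27025 genes. ACGTG was found in 3 of the 6 higher genes, in 5 of 15 lower genes and in 9 of 18 that did not pass. Of all 32851 promoters 19.6% held it, and of the 57 promoters of the listed genes 42.1% did, several of which overlap because a gene can have several starts. Either form, ACGTG or GCGTG, was held by 29 of the 39 genes, or 74.4%, against 46.7% of all genes. These shares were not adjusted for the base composition of the promoters, and a gene with more listed starts has more chances to hold the letters. Whether any of these places is bound was not tested.

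Phosphofructokinase catalyses the committing step of glycolysis, and its subunits are encoded by Pfkm (muscle type), Pfkl (liver type) and Pfkp (platelet type). Pfkl was at 225, 219 and 238 CPM in sham mice and at 194, 172 and 154 CPM in BCAS mice, without overlap, and fell by 0.40 on the log2 scale (SE 0.095, adjusted P = 0.013). Without sham mouse 3 it missed the threshold (adjusted P = 0.058). Pfkm was at 299, 321 and 330 CPM in sham mice and 263, 288 and 257 CPM in BCAS mice, which also did not overlap, with a log2 fold change of -0.23 ± 0.08 that did not pass (adjusted P = 0.059). Pfkp was at 205, 219 and 213 CPM in sham mice and 201, 236 and 211 CPM in BCAS mice, with the groups interleaved and a log2 fold change of 0.03 ± 0.08. Per kilobase Pfkm was the main subunit in both groups, at 65.5% ± 0.82 and 65.7% ± 1.39 (SD, n = 3) of the sum, whereas the share of Pfkp was 10.9% ± 0.35 in sham and 13.1% ± 0.79 in BCAS mice. The summed level was 145 ± 5.99 CPM/kb in sham and 123 ± 6.89 CPM/kb in BCAS mice.

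Aldolase cleaves fructose-1,6-bisphosphate. Aldoa is the general form, and Aldoc is the brain form that astrocytes express strongly. Aldoa (chr7:126795234-126800751, minus strand) was the most abundant of the 40 genes per kilobase, at 519 CPM/kb in sham mice. It was at 1341, 1494 and 1695 CPM in sham mice and 1139, 1227 and 979 CPM in BCAS mice, lower in every BCAS mouse, and fell by 0.44 on the log2 scale (SE 0.14, adjusted P = 0.039). This call was lost in 6 of the 14 alternative analyses, among them each one without a sham mouse and those without BCAS mouse 1 or 3, where the adjusted P was 0.057 to 0.13. Aldoc was at 754, 768 and 823 CPM in sham mice and 904, 999 and 912 CPM in BCAS mice. It was higher in every BCAS mouse, with a log2 fold change of 0.26 ± 0.10 that did not pass (adjusted P = 0.073). Aldoc passed with DESeq2, limma-voom and scaling to library totals, where its adjusted P was 0.018 to 0.046. Its share of the aldolase level per kilobase was 31.7% ± 1.61 (SD, n = 3) in sham mice and 43.0% ± 2.12 in BCAS mice.

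Enolase converts 2-phosphoglycerate to phosphoenolpyruvate, with Eno1 as the general and Eno2 as the neuronal form. Eno2 (chr6:124760053-124769673, minus strand) was at 804, 782 and 902 CPM in sham mice and 579.6, 603 and 483 CPM in BCAS mice. The groups were far apart relative to their spread, and Eno2 had the most negative log2 fold change of the 40 genes, -0.58 ± 0.12 (adjusted P = 0.0062), which passed in all 14 alternative analyses. Eno1 was at 667, 725 and 795 CPM in sham mice and 626, 679 and 605 CPM in BCAS mice, where BCAS mouse 2 overlapped the sham range, and its log2 fold change of -0.19 ± 0.10 did not pass (adjusted P = 0.19). The share of Eno2 in the enolase level per kilobase was 56.5% ± 1.36 (SD, n = 3) in sham and 49.8% ± 1.92 in BCAS mice, and the sum of both was 312 ± 24.1 against 236 ± 19.8 CPM/kb.

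**Figure D4:**
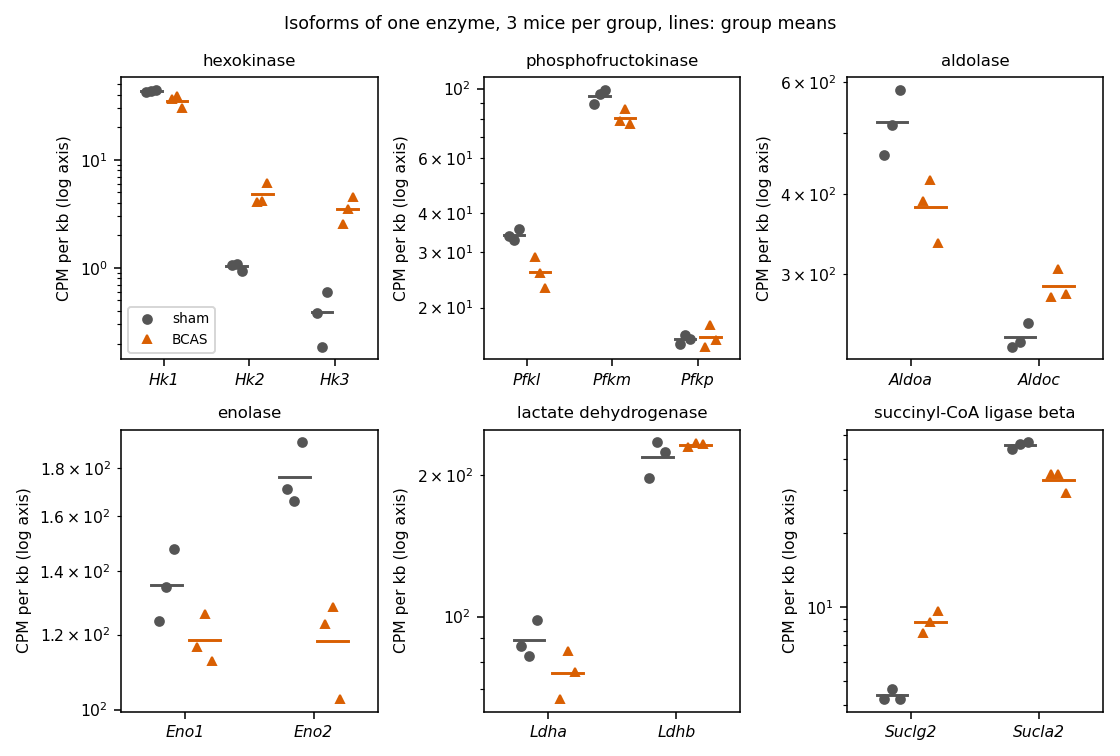
Level per kilobase (CPM/kb, logarithmic axes) of the isoforms of 6 enzymes, with 1 point per mouse, circles for the 3 sham mice, triangles for the 3 BCAS mice and lines for the group means. Hk2, Hk3 and Suclg2 lie higher in every BCAS mouse while their abundant partners Hk1 and Sucla2 lie lower.

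The remaining glycolytic genes have 1 listed form each. Pgk1 (phosphoglycerate kinase) fell by 0.29 (adjusted P = 0.035) and Pgam1 (phosphoglycerate mutase) by 0.33 (adjusted P = 0.022) on the log2 scale. Both calls were lost when sham mouse 2, sham mouse 3 or BCAS mouse 1 was left out, and with the replicate block. That of Pgk1 was also lost with BCAS mouse 3 left out and with scaling to library totals. Gpi1 (glucose-6-phosphate isomerase), Tpi1 (triosephosphate isomerase) and Pkm (pyruvate kinase) had log2 fold changes of -0.18, -0.30 and -0.25 and did not pass (adjusted P = 0.24, 0.079 and 0.095). A count per gene does not tell the 2 splice forms of Pkm apart, and 15.3% of the exon bases of Pkm, 11.5% of those of Gpi1 and 10.8% of those of Pfkm are shared with other genes.

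Gapdh, the glyceraldehyde-3-phosphate dehydrogenase to which the study normalised its qRT-PCR, was at 148, 162 and 179.8 CPM in sham mice and at 142, 158 and 128 CPM in BCAS mice. BCAS mouse 2 lay within the sham range and BCAS mice 1 and 3 lay below it. The log2 fold change was -0.20 ± 0.10 and did not pass (adjusted P = 0.17), except without BCAS mouse 2 (-0.29, adjusted P = 0.0496), and over the 14 alternatives the adjusted P was 0.0496 to 0.461. Reads that align to several places were not counted, so levels of genes with near-identical copies elsewhere, of which Gapdh has many, are uncertain.

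Lactate dehydrogenase is a tetramer of the subunits encoded by Ldha, the form typical of glycolytic muscle, and Ldhb, the form typical of heart. Ldha was at 287, 273 and 325 CPM in sham mice and 221, 279.9 and 253 CPM in BCAS mice, with BCAS mouse 2 inside the sham range (log2 fold change -0.23 ± 0.11, adjusted P = 0.13). Without BCAS mouse 2 it passed (-0.32, adjusted P = 0.039), and over the 14 alternatives its adjusted P was 0.0394 to 0.375. Ldhb was at 309, 369 and 353 CPM in sham mice and 361, 368 and 366 CPM in BCAS mice, so the groups overlapped (log2 fold change 0.09 ± 0.09, adjusted P = 0.49). Ldhb was the larger part per kilobase in every mouse, at 71.0% ± 2.61 (SD, n = 3) in sham and 75.4% ± 1.998 in BCAS mice.

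Pyruvate enters the cycle through the pyruvate dehydrogenase complex, made of the E1 subunits Pdha1 and Pdhb, the E2 core Dlat and the E3 subunit Dld, or through pyruvate carboxylase (Pcx), which makes oxaloacetate and is known in brain as an astrocyte enzyme. All 4 listed genes of the complex were lower after BCAS. Dlat (chr9:50634633-50659780, minus strand) was at 151, 143 and 154 CPM in sham mice and 108.5, 113 and 91.7 CPM in BCAS mice. The groups were separate, and Dlat fell by 0.52 on the log2 scale (SE 0.090, adjusted P = 0.0032). Pdhb was at 139.7, 145 and 151 CPM in sham mice and 116, 120.5 and 99.7 CPM in BCAS mice, likewise separate, and fell by 0.38 (SE 0.086, adjusted P = 0.011). These 2 calls held in all 14 alternative analyses. Dld fell by 0.31 and Pdha1 by 0.29 (adjusted P = 0.013 for both), and without sham mouse 3 neither passed, nor did Pdha1 without sham mouse 2. Pcx was at 66.2, 68.1 and 63.6 CPM in sham mice and 68.1, 67.5 and 65.2 CPM in BCAS mice, and its log2 fold change of 0.02 ± 0.07 did not pass (adjusted P = 0.85). About 16.2% of the exon bases of Pdha1 are shared with Map3k15 on the opposite strand, and the counting ignored strand.

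At the isocitrate step of the TCA cycle, 2 of the 3 genes of the NAD-linked enzyme were lower and the NADP-linked Idh2 was higher. Idh3a, Idh3b and Idh3g encode the subunits of the NAD-linked form. Idh3b was at 229, 232 and 259 CPM in sham mice and 177, 189 and 159 CPM in BCAS mice, without overlap, and fell by 0.46 on the log2 scale (SE 0.090, adjusted P = 0.0059). Idh3a fell by 0.43 (adjusted P = 0.0090), and Idh3g had a log2 fold change of -0.21 that did not pass (adjusted P = 0.0796). Idh2 (chr7:80094846-80115392, minus strand), which makes NADPH in the mitochondrion, was at 38.5, 43.5 and 41.8 CPM in sham mice and 66.8, 52.9 and 72.3 CPM in BCAS mice. Every BCAS mouse was higher, BCAS mouse 2 least, and Idh2 rose by 0.63 on the log2 scale (SE 0.12, adjusted P = 0.0041).

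Succinyl-CoA ligase pairs the subunit encoded by Suclg1 with either of 2 beta subunits, the ADP-forming Sucla2 or the GDP-linked Suclg2. Suclg2 (chr6:95473009-95718800, minus strand) was at 19.7, 21.5 and 19.7 CPM in sham mice and 36.5, 40.1 and 44.6 CPM in BCAS mice. The sham mice lay close together and every BCAS mouse was far above them, a 1.99-fold rise (log2 fold change 1.00 ± 0.10, adjusted P = 0.00018). Sucla2 (chr14:73525319-73596142, plus strand) was at 176, 183 and 186 CPM in sham mice and 139, 139 and 116 CPM in BCAS mice. It was lower in every BCAS mouse and fell by 0.47 (SE 0.086, adjusted P = 0.0041). Per kilobase, Suclg2 made up 8.77% ± 0.42 (SD, n = 3) of the beta subunits in sham mice and 21.1% ± 3.34 in BCAS mice, and the sum of both was 49.97 ± 1.39 CPM/kb and 41.6 ± 2.501 CPM/kb. The shared subunit Suclg1 fell by 0.30 (adjusted P = 0.023). This call was lost without sham mouse 2 or 3, with scaling to library totals and with the replicate block.

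Among the other TCA genes, Mdh1 (the cytosolic malate dehydrogenase of the malate-aspartate shuttle) was at 628, 674 and 737 CPM in sham mice and 470.0, 535 and 455 CPM in BCAS mice. It was lower in every BCAS mouse and fell by 0.48 on the log2 scale (SE 0.10, adjusted P = 0.0090). Mdh2, its mitochondrial counterpart, was at 237, 271 and 296 CPM in sham mice and 210.0, 228 and 189.5 CPM in BCAS mice, which did not overlap, and fell by 0.36 (adjusted P = 0.030). The call on Mdh2 was lost without sham mouse 2, sham mouse 3, BCAS mouse 1 or BCAS mouse 3, and with the replicate block. Fh1 (fumarate hydratase) fell by 0.30 (adjusted P = 0.014), a call lost without sham mouse 2 or 3. Cs (citrate synthase) had a log2 fold change of -0.18 and did not pass (adjusted P = 0.13), although all BCAS mice lay below all sham mice. Ogdh and Dlst, subunits of the 2-oxoglutarate dehydrogenase complex, had log2 fold changes of -0.03 and -0.07 with overlapping groups (adjusted P = 0.80 and 0.47).

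Within the pentose phosphate pathway the oxidative genes were higher. G6pdx (glucose-6-phosphate dehydrogenase, which commits glucose to the pathway) was at 25.8, 24.5 and 25.0 CPM in sham mice and 31.2, 34.2 and 36.3 CPM in BCAS mice. The groups were separate, and G6pdx rose by 0.43 on the log2 scale (SE 0.091, adjusted P = 0.0078). Of its exon bases 13.6% are shared with Ikbkg on the opposite strand. Pgd (6-phosphogluconate dehydrogenase, the other step that makes NADPH) was at 32.7, 30.6 and 33.4 CPM in sham mice and 44.8, 52.7 and 61.3 CPM in BCAS mice, higher in every BCAS mouse, and rose by 0.71 (SE 0.12, adjusted P = 0.0022). Both calls held in all 14 alternative analyses.

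The 2 genes of the non-oxidative branch, which exchanges sugar phosphates with glycolysis, did not pass. Tkt (transketolase) was at 114, 125 and 116 CPM in sham mice and 124.5, 120.5 and 134 CPM in BCAS mice (log2 fold change 0.09 ± 0.07, adjusted P = 0.38). Taldo1 (transaldolase) was at 99.5, 95.4 and 103.5 CPM in sham mice and 90.6, 101 and 113 CPM in BCAS mice (0.03 ± 0.09, adjusted P = 0.83). The groups overlapped in both genes. Whether the oxidative and non-oxidative genes differed in response was not tested.

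Whether the isoforms of 1 enzyme changed unequally was examined with the log2 ratio of their levels in each mouse, in which scaling of the library cancels. Of 11 pairs compared, 8 had no overlap between the groups, and for each of these the exact two-sided permutation test of 3 against 3 mice gave P = 0.1, the smallest it can give (adjusted over the 11 pairs, P = 0.138). This test therefore cannot reach 0.05 with these group sizes. The ratio Hk2/Hk1 was -5.31, -5.31 and -5.55 in sham mice and -3.16, -3.25 and -2.30 in BCAS mice, a difference of 2.49 ± 0.31 (SE). For Hk3/Hk1 the difference was 3.58 ± 0.58. The ratio Suclg2/Sucla2 was -3.37, -3.31 and -3.46 in sham mice and -2.14, -2.002 and -1.59 in BCAS mice, a difference of 1.47 ± 0.17.

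Smaller shifts were seen for Aldoa/Aldoc (-0.70 ± 0.09), Pfkl/Pfkp (-0.42 ± 0.14), Eno1/Eno2 (0.39 ± 0.08), Pfkp/Pfkm (0.26 ± 0.04) and Mdh1/Mdh2 (-0.12 ± 0.04). The groups overlapped for Hk3/Hk2 (1.10 ± 0.56, exact permutation P = 0.2), Ldha/Ldhb (-0.33 ± 0.14, P = 0.2) and Pfkl/Pfkm (-0.17 ± 0.11, P = 0.3). For Ldha/Ldhb, the difference between a single BCAS mouse and a single sham mouse ran from -0.60 to 0.04. Pairs of 1 family share genes, and the ratios of Hk1, Hk2 and Hk3 or of the 3 phosphofructokinase subunits are not independent of each other.

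**Figure D5:**
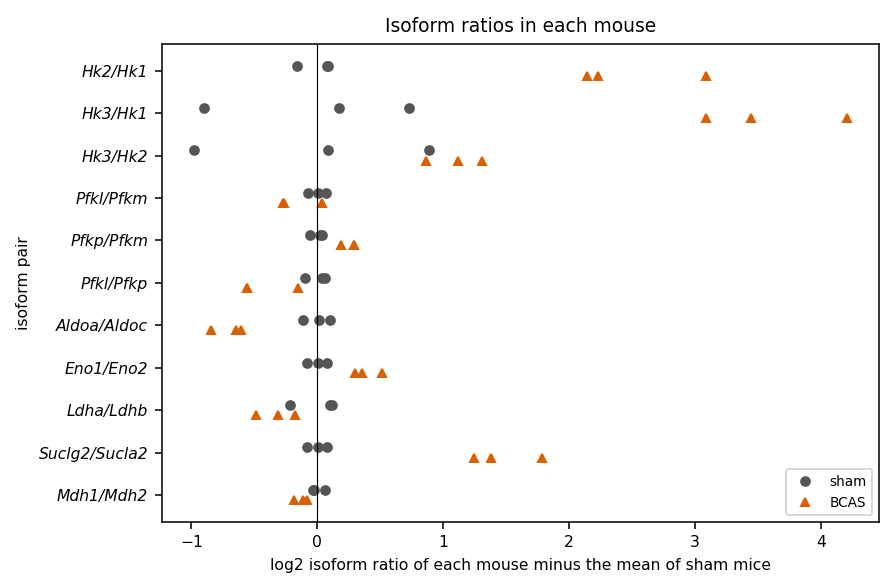
Log2 ratio of 2 isoforms in each mouse minus the mean of the sham mice (horizontal axis) for the 11 pairs, circles for sham and triangles for BCAS. Hk3/Hk1, Hk2/Hk1 and Suclg2/Sucla2 lie furthest to the right in BCAS mice, Aldoa/Aldoc lies to the left, and Hk3/Hk2, Pfkl/Pfkm and Ldha/Ldhb overlap.

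Other genes of these pathways were taken from lists of transporters, regulators, further isozymes and neighbouring reactions. Of 83 such genes 75 could be tested, and 17 were higher (22.7%) and 14 lower (18.7%), against 18.0% and 13.2% of all tested genes. The counts of the single lists that follow are to be read against the same shares. Without sham mouse 1 these counts were 9 and 7, and without sham mice 2 and 3 the lower genes numbered 8 and 7. In the transport list 5 of 15 genes were higher and 1 was lower. Slc2a1 (GLUT1, the glucose carrier of the blood-brain barrier and astrocytes) was at 61.7, 72.4 and 70.8 CPM in sham mice and 83.9, 87.4 and 106 CPM in BCAS mice and rose by 0.44 on the log2 scale (adjusted P = 0.014), a call lost without sham mouse 1 (adjusted P = 0.064). Slc2a3 (GLUT3, the neuronal carrier) was at 143, 139.3 and 154 CPM in sham mice and 111, 139.2 and 93.5 CPM in BCAS mice, with BCAS mouse 2 just under the lowest sham mouse, and its log2 fold change of -0.34 did not pass (adjusted P = 0.078). It passed without BCAS mouse 2 (adjusted P = 0.0034), with DESeq2 and without the expression filter.

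Of the 4 listed monocarboxylate carriers, which move lactate and pyruvate, 2 were higher. Slc16a1 (MCT1) was at 60.7, 53.5 and 65.8 CPM in sham mice and 94.4, 99.3 and 122 CPM in BCAS mice and rose by 0.81 (adjusted P = 0.0011). Slc16a3 (MCT4) was at 3.54, 4.16 and 3.79 CPM in sham mice and 8.90, 16.3 and 18.3 CPM in BCAS mice and rose by 1.92 (adjusted P = 0.00078). In both, every BCAS mouse was above every sham mouse. Slc2a4 (GLUT4) rose by 1.92 and the fructose carrier Slc2a5 by 1.07, from sham means of 1.602 and 5.88 CPM. Slc2a13, a myo-inositol carrier, was the single transport gene that passed as lower, with a fall of 0.45.

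Of the regulators 3 of 12 tested genes were higher and 3 lower. Pfkfb3 and Pfkfb4, which set fructose-2,6-bisphosphate, the activator of phosphofructokinase, rose by 0.91 and 0.94 on the log2 scale (adjusted P = 0.00070 and 0.0019), and Tigar, which lowers it, fell by 0.44 (adjusted P = 0.013). The pyruvate dehydrogenase kinases, which switch the complex off, went in both directions: Pdk1 rose by 0.44 (adjusted P = 0.0023), whereas Pdk2 and Pdk3 fell by 0.28 and 0.36. The list of TCA and anaplerosis genes had 6 lower and 1 higher of 18 tested, among them the aspartate aminotransferases Got1 and Got2 (each fell by 0.47), Pdhx, the E3-binding protein of the pyruvate dehydrogenase complex (fell by 0.43), and glutamate dehydrogenase Glud1 (rose by 0.32). The calls on Tigar and Glud1 were lost without sham mouse 1, those on Glud1 and Pdhx without sham mouse 2, and that on Pdhx without sham mouse 3.

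Of 9 further pentose phosphate genes tested, H6pd (hexose-6-phosphate dehydrogenase of the endoplasmic reticulum) rose by 0.90 and Pgls (6-phosphogluconolactonase) by 0.43, and Prps1 (phosphoribosyl pyrophosphate synthetase) fell by 0.43. Of 11 glycogen genes 5 were higher, including the phosphorylases Pygl (1.53) and Pygb (0.37) and glycogen synthase Gys1 (0.43), and Pgm2l1 (glucose-1,6-bisphosphate synthase) fell by 0.65. The calls on Pgls, Pygb and Gys1 were lost without sham mouse 1, those on Pgls and Gys1 without sham mouse 3, and that on Pgls without BCAS mouse 3. Among 10 tested glycolytic isozymes outside the 40 genes, Eno3, the muscle enolase, rose by 0.55, while the muscle phosphoglycerate mutase Pgam2 fell by 0.76 from a sham mean of 6.53 CPM. The calls on Pgam2 and Eno3 were each lost when either sham mouse 1 or sham mouse 2 was left out, and that on Eno3 also when any 1 of the BCAS mice was. Pgk2 and Ldhc, the testis forms, had no count in any mouse. With independent counts, a limit of 3 counts would be a level of 0.0875 to 0.0995 CPM. Each mate of a pair was counted, however, so the limit is higher.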

How the data were processed

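The authors trimmed the reads with Trim Galore, mapped them to mm10 (HISAT2) and assigned them to genes (featureCounts). Their notes name version 1.6.3, the deposited file headers version 2.0.3 with the annotation GENCODE M20. The deposited values are raw counts per gene, in which, per the file headers, each mate of a pair was counted, without regard to strand, and reads on several places or several genes were left out. The other deposited column used was the merged exon length of each gene, per the file headers.

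The 40 genes and the other lists were chosen with earlier results of these data known. Symbols were matched for 54723 of 54752 genes; Aldoa has another identifier with 25 to 57 counts, which was not used. Genes were kept by filterByExpr, scaled by TMM (0.964-0.984 in sham, 1.01-1.05 in BCAS libraries) and compared with edgeR 4.0.16 (quasi-likelihood, R 4.3.3), with Benjamini-Hochberg adjustment over all 18617 genes tested. CPM uses the TMM-scaled totals, and CPM/kb divides it by exon length. Totals were 29652456 to 35607098 counts, and 3 counts correspond to 0.0875-0.0995 CPM. As a limit this covers counting error alone and takes counts as independent, although each mate of a pair was counted. Isoform ratios took 0.5 count as prior and an exact two-sided permutation test. Promoters were RefSeq entries. Named genes were all 40, up to 4 passed genes per other list by P value, and Slc2a1, Slc2a3, Slc16a1 and Slc16a3; 1 gene of the other lists is counted but not reported here by name, and Pdk2, Pdk3, Slc2a13, Pgk2 and Ldhc were named after their values were seen. Alternatives were DESeq2 1.42.0, limma-voom (limma 3.58.1), RLE, library totals, all genes with at least 1 count, a mean of at least 10 counts, the log2 threshold of 1, the replicate number as a block, counts halved, a prior of 5 counts for ratios, and leaving out each mouse. The code was tested on simulated data. The authors' blood flow, histology and qRT-PCR measurements and protein sequences were not used here.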

Additional observations from a re-analysis of the deposited data

How the results depend on the processing

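All 6 higher calls among the 40 genes held in the 14 alternative analyses, and 7 of the 16 lower calls did; DESeq2, limma-voom, RLE scaling, both filters and halved counts kept all 16. With the threshold of 1 on the log2 fold change, 0 genes were lower and 2 higher, and of the other pathway genes 1 was lower and 4 were higher. Leaving out 1 mouse gave 7 to 23 lower genes of the 40, and 7 to 18 lower and 9 to 16 higher other pathway genes. Scaling to library totals moved the median log2 fold change of all genes from 0.018 to 0.095, that of pyruvate entry to -0.24 and of the TCA cycle to -0.22, and turned Ogdh to 0.048 and Dlst to 0.0039; 14 of the 16 lower calls were kept. Without 1 mouse, values near 0 changed sign: Pfkp ran from -0.051 to 0.074, Pcx from -0.0078 to 0.041 and Taldo1 from -0.058 to 0.10. None of these genes passed. Residuals of sham and BCAS libraries of the same label number correlated at 0.048, -0.39 and -0.19. Inside the files the BCAS columns are numbered 2 to 4 in place of 1 to 3. By those numbers 2 pairs are shared, which correlated at 0.28 and 0.43, and a block on them was not fitted. The choroid plexus marker Ttr was at 882, 3773 and 38.0 CPM in sham mice 1 to 3. In BCAS mice 1 to 3 it was at 5461, 23.7 and 2930 CPM. The part of such carryover in these correlations was not tested, so they cannot decide whether either numbering pairs the mice. With the label number as a replicate block, 11 genes were lower and 6 higher. The 11 isoform ratios kept their direction with a prior of 5 counts and without each mouse, and library scaling cancels in them. With 3 mice a group, differences under about 0.3 on the log2 scale mostly missed the threshold, and low genes such as Hk3 are the least precise.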
